A study of Mus musculus with 12 samples.

Results

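The cell cycle and DNA replication genes described here are 39 named genes with a role in copying DNA, in mitosis, or in the control of both. Of these 37 had a probe set with a single gene symbol on the array, out of 8251 genes in all. The probe sets for Tyms name a pseudogene as well, and Ccnb1 has no probe set of its own in the annotation used here. A gene with several probe sets is represented by that of highest mean log2 signal. The 37 genes fall into 4 roles: 14 of S phase and replication, 13 of G2 and mitosis, 7 G1 cyclins, kinases and the transcription factor E2f1, and 3 inhibitors of the cyclin-dependent kinases.

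Fat of 10 male C57BL/6 mice, an inbred laboratory strain, aged 42 to 49 days, was pooled by depot. The subcutaneous depot was that of the flank and the intraabdominal depot the epididymal fat. Collagenase digestion gave 4 groups with 3 arrays each: adipocytes of either depot, taken as the floating cells, and stromo-vascular cells of either depot, the pelleted mixture of preadipocytes and other cell types (stromo-vascular fraction, SVF). The SVF had been plated in medium with serum and RNA was taken after 16 h, whereas adipocytes went from washing to RNA extraction, so cell fraction and culture cannot be told apart. No genetic change or treatment is given for any group. Whether the 3 arrays of a group came from separate pools is not stated, so p-values measure only the spread between these samples.

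A cell divides once D-type cyclins with Cdk4 have inactivated the retinoblastoma proteins and E2F factors have switched on the genes of DNA synthesis. Cyclin A and cyclin B with Cdk1 then carry the cell into mitosis, and the anaphase-promoting complex with Cdc20 lets it out. Inhibitors of the INK4 type (Cdkn2c, p18) and of the Cip/Kip type (Cdkn1a, p21, and Cdkn1b, p27) act as brakes. Mature fat cells are known as non-dividing, while their precursors in the stroma can divide and do so in culture.

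Signals are array intensities on a linear scale and are compared between groups for one probe set at a time. Differences are on the log2 scale after adding 40.2 to each signal, tested with limma over 8695 probe sets, and "called" means a Benjamini-Hochberg adjusted p under 0.05 over all of them. Folds are on that scale too and so understate changes between low signals. Of the 37 members 32 passed the filter on low signal (mean log2 signal above that of a signal of 173), while Mcm6, Prim1, Top2a, Bub1 and Kif11 did not. The 9 adipocyte markers on the array summed to 537526 to 618561 in subcutaneous and 597537 to 722107 in intraabdominal adipocytes, against 26240 to 31827 and 19035 to 21799 in the SVF of the same depots, and the 10 preadipocyte and fibroblast markers to 57168 to 83406 and 48366 to 55145 in adipocytes against 343783 to 375672 and 240220 to 269568 in SVF. The adipocyte fractions also carried other cells: 8 of 9 endothelial markers were called higher there than in SVF in each depot, with sums of 18971 to 33943 and 22175 to 24681 in adipocytes against 10036 to 11637 and 10129 to 17484 in SVF. The 4 erythroid markers on the array summed to 18304 to 44954 and 20703 to 22159 in adipocytes and 1031 to 1287 and 612 to 1127 in SVF, which had been through red cell lysis. In intraabdominal fat 7 of 8 smooth muscle and pericyte markers, 5 of 5 tested mesothelial and 6 of 10 tested macrophage markers were called lower in adipocytes than in SVF, as were 2, 0 and 5 in subcutaneous fat. Markers of the same lists were also called higher in adipocytes: 1, 0 and 3 in intraabdominal and 2, 1 and 3 in subcutaneous fat. Sums of smooth muscle markers were 11858 to 14138 in subcutaneous and 19102 to 21365 in intraabdominal adipocytes, those of mesothelium 1083 to 1872 and 1145 to 1750 and those of macrophages 20221 to 28637 and 14961 to 25578. The part of these cells in the results on fractions was not tested. The ratio of the 3' to the 5' signal of actin, which rises as RNA degrades, was 2.35 to 3.10 in subcutaneous and 1.71 to 2.24 in intraabdominal adipocytes, 1.20 to 1.24 in subcutaneous and 1.11 to 1.21 in intraabdominal SVF. The bulk RNA of a fraction does not separate fewer dividing cells from less RNA of these genes per cell.

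Plated SVF had higher signals of many cell cycle genes than adipocytes, with Rrm1, Rrm2, Cdk1 and the inhibitor Cdkn1b among the largest differences, and a second inhibitor, Cdkn2c, ran the other way. Of 10 tested genes of mitosis 8 were called lower in intraabdominal adipocytes than in SVF, and of 12 tested genes of replication 6. In intraabdominal fat 17 members were called lower in adipocytes than in SVF and 1 higher, and in subcutaneous fat 10 lower and 1 higher. Between depots, 6 members were called lower in subcutaneous than in intraabdominal SVF, whereas in adipocytes 3 were called higher in the subcutaneous depot and 1 lower. Of these 3, Rrm2 was dim in adipocytes and passed the filter on low signal through SVF. The heat map of the 37 members shows the block of high values in intraabdominal SVF and the reverse pattern of Cdkn2c.

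**Figure D1:**
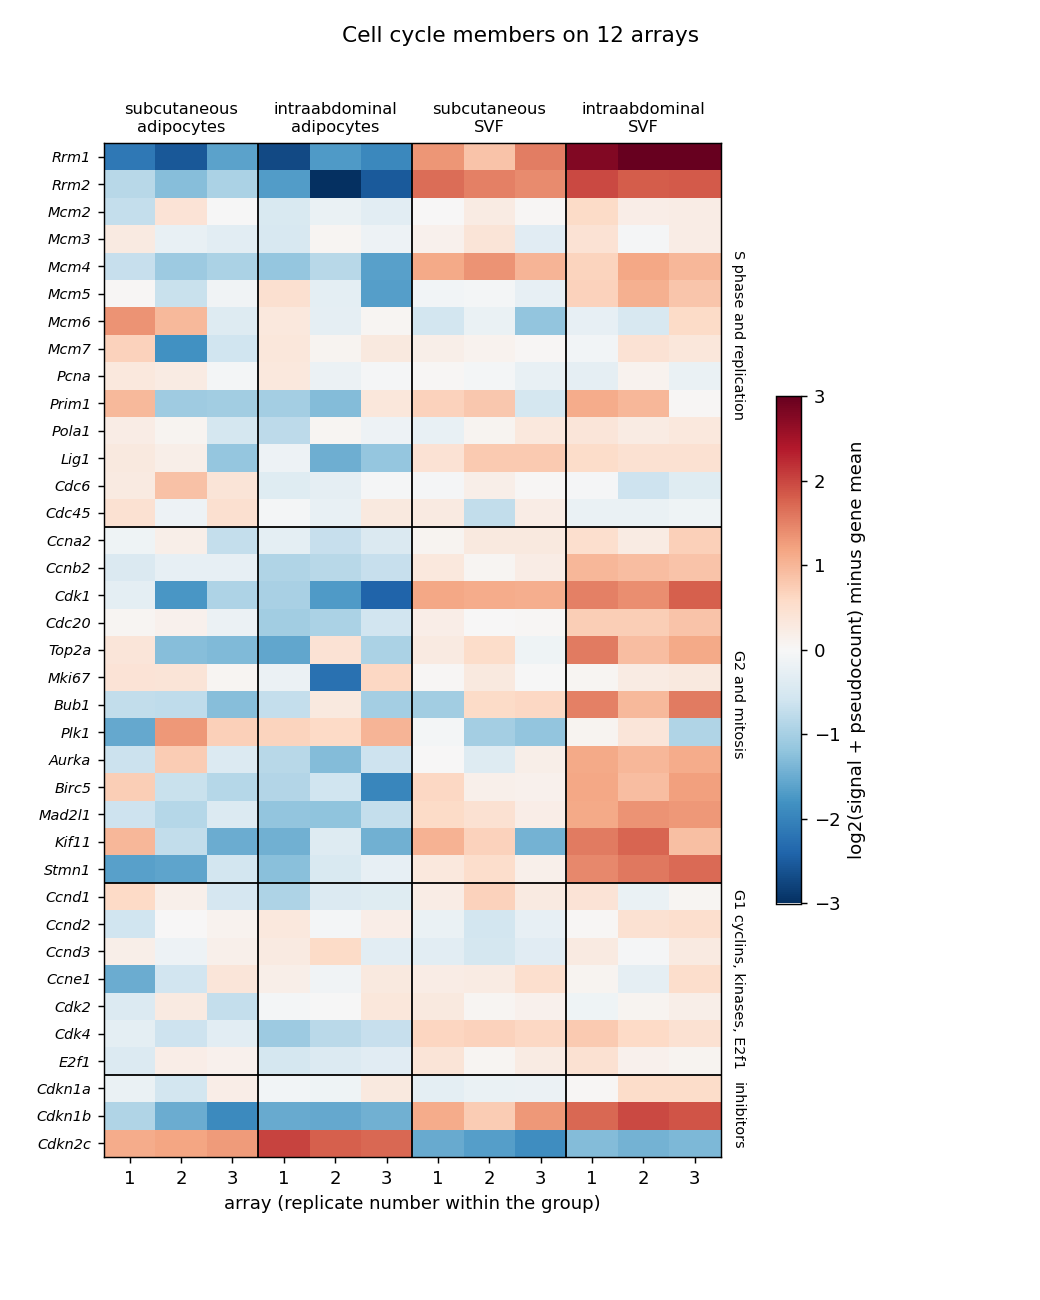
Log2 signal of each of the 37 members (rows, ordered by role) on each of the 12 arrays (columns, 3 per group), as the difference from the gene's mean over the 12 arrays; red is above and blue below that mean, and colours saturate at 3 log2 units. Rrm1, Rrm2, Cdk1 and Cdkn1b were low on the 6 adipocyte arrays and high on the 6 SVF arrays, Cdkn2c ran the other way, and most genes of mitosis were highest in intraabdominal SVF.

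These counts stand beside the shares of all probe sets called. In intraabdominal fat 51.3% of the 8695 probe sets were called between the fractions, 29.0% lower and 22.4% higher in adipocytes. Of the 32 tested members 53.1% were lower. Among them Rrm1, Rrm2, Aurka, Birc5 and Cdkn1b had intraabdominal adipocyte means of 109, 52.0, 123, 131 and 77.4. These means lay under the level of the filter, which the genes passed through other groups. The background passed the same filter. With the lowest 50% of mean log2 signal left out 13 members were called in place of 18, without Rrm2, Lig1, Aurka, Birc5 and Cdkn1b. In subcutaneous fat 52.8% of probe sets were called and 29.4% were lower, and of the members 31.2% were lower, a share near the background. The actin ratio was higher on every adipocyte array than on every SVF array, so as a covariate it is hard to separate from the fraction. With this covariate 10 of the 18 calls in intraabdominal and 2 of the 11 in subcutaneous fat were kept. Calls over all probe sets were also fewer under some alternative settings, with lowest counts of 2173 (4462 in the main setting) and 1058 (4595). Those kept in subcutaneous fat were the inhibitors Cdkn1b and Cdkn2c, while Rrm1, Rrm2, Mcm4, Ccnb2, Cdk1, Mad2l1, Stmn1, Ccne1 and Cdk4 were lost. In intraabdominal fat Mcm2, Mcm5, Lig1, Cdk1, Aurka, Birc5, Stmn1 and E2f1 were lost. Between depots 12.9% of probe sets were called in SVF (6.45% lower in the subcutaneous depot, against 18.8% of the members) and 8.13% in adipocytes (3.97% higher and 4.16% lower in the subcutaneous depot, against 9.38% and 3.12% of the members). Over the 37 members on the array, tested or not, the median log2 difference between adipocytes and SVF was -0.95 in intraabdominal and -0.45 in subcutaneous fat, where the medians of all probe sets were -0.03 and 0.09. For subcutaneous minus intraabdominal SVF the members' median was -0.38 (all probe sets 0.07), and for adipocytes 0.24 (all probe sets 0.14).

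The promoters of these genes are known for sites that tie them to a phase, and 5 of them are shown because their genes carry the comparisons that follow. E2F sites are typical of replication genes. The cell cycle genes homology region (CHR) and CCAAT boxes, bound by MuvB-containing complexes and by NF-Y, are typical of genes of mitosis. The windows reach from 250 bases before to 50 after the annotated start (RefSeq, build GRCm38.p6), read 5′ to 3′ along the gene. Capitals mark every match, on either strand, to the E2F motifs TTTCGCGC, TTTGGCGC and TTTCCCGC, the CHR motifs TTTGAA and TTCGAA, and CCAAT. Ccnb2, cyclin B2, lies at chr9:70421505-70421804 (minus strand), Cdc20 at chr4:118437294-118437593 (minus strand), Cdk1 at chr10:69352863-69353162 (minus strand), Mcm5, a subunit of the replicative helicase, at chr8:75109259-75109558 (plus strand), and Rrm1, the large subunit of ribonucleotide reductase, at chr7:102441445-102441744 (plus strand).
Ccnb2: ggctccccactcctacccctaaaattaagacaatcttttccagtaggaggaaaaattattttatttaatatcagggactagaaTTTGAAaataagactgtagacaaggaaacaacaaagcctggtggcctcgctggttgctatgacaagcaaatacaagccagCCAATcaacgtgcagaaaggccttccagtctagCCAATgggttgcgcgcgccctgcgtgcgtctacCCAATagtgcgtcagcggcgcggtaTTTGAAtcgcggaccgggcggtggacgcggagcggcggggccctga
Cdc20: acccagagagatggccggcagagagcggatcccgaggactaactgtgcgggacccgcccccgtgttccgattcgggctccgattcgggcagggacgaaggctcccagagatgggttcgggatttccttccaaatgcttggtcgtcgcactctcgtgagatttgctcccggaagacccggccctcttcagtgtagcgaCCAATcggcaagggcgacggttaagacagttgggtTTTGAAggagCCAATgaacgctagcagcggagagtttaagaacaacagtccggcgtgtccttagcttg
Cdk1: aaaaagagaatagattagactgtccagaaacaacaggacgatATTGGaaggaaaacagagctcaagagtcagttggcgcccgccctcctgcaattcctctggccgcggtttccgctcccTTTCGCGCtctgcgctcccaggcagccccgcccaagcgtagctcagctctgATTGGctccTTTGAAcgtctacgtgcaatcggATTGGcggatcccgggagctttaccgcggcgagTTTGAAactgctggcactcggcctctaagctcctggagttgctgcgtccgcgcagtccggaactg
Mcm5: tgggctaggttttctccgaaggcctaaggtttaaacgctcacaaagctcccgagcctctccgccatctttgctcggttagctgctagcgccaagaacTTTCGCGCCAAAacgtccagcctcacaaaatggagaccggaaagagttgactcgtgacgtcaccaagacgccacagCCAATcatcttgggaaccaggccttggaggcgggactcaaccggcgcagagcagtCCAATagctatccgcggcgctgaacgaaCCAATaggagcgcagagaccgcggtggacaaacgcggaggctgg
Rrm1: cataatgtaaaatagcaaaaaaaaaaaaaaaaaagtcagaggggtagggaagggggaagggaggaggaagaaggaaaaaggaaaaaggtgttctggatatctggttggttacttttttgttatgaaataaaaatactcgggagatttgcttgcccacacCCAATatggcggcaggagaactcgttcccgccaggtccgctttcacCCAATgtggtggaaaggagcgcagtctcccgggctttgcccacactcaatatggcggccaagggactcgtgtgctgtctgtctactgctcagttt

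Most mitosis genes had a CHR match in the window, and about as many replication genes had an E2F match as lacked one. Of the 11 mitosis genes with a window, 9 had a CHR match (Aurka, Bub1, Ccnb2, Cdc20, Cdk1, Kif11, Mki67, Plk1 and Top2a), and the same 9 had a CCAAT box. Of 13 replication genes 3 had a CHR match and 7 an E2F match (Cdc6, Lig1, Mcm3, Mcm5, Mcm6, Mcm7 and Pola1), whereas 1 mitosis gene, Cdk1, had an E2F match. Among all 32851 windows of this length 19.2% held a CHR match, 1.84% an E2F match and 37.4% a CCAAT box, and per gene, counting any of its windows, the shares of 27025 genes were 21.7%, 2.12% and 41.1%. The window of Cdk1 held all 3 kinds, that of Rrm1 only CCAAT boxes, and in Mcm5 the 2 E2F matches overlap each other. In all 32 of the 37 members had at least 1 window, and 5 genes had several. Mcm4, Ccna2, Stmn1, Ccnd1 and Ccnd2 were not matched. A match describes these letters and was not tied to any level on the arrays.

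Among the replication genes the ribonucleotide reductase subunits and Mcm4 separated the fractions most clearly. Ribonucleotide reductase makes the deoxynucleotides that DNA synthesis uses. Its large subunit Rrm1 read 99.2, 65.5 and 164 on the 3 arrays of subcutaneous adipocytes, 54.2, 151 and 123 in intraabdominal adipocytes, 1521, 1086 and 1756 in subcutaneous SVF and 4186, 5343 and 4971 in intraabdominal SVF. All adipocyte arrays lay below all SVF arrays, and every intraabdominal SVF array lay above every subcutaneous one. Rrm1 was 33.8-fold lower in adipocytes than in SVF of intraabdominal fat (log2 difference -5.08 ± 0.313 SE, adjusted p = 4.46e-09) and 10.2-fold lower in subcutaneous fat (log2 difference -3.34 ± 0.313 SE, adjusted p = 4.35e-07). The adipocyte signals lay under the level of the filter, so these folds depend on the pseudocount. Between the SVF of the depots Rrm1 was 3.30-fold lower in subcutaneous cells (log2 difference -1.72 ± 0.313 SE, adjusted p = 0.00161), while the adipocytes of the depots gave a difference of 0.01 ± 0.313 SE.

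Rrm2, the small subunit, whose level is known to rise in S phase, read 213, 147 and 192 in subcutaneous adipocytes, 101, 17.1 and 38.3 in intraabdominal adipocytes, 1402, 1254 and 1157 in subcutaneous SVF and 1736, 1558 and 1587 in intraabdominal SVF. The fractions again did not overlap. Adipocytes were 19.4-fold lower than SVF in intraabdominal fat (log2 difference -4.28 ± 0.309 SE, adjusted p = 2.7e-08) and 5.88-fold lower in subcutaneous fat (log2 difference -2.56 ± 0.309 SE, adjusted p = 6.29e-06). Subcutaneous adipocytes read 2.59-fold higher than intraabdominal ones (log2 difference 1.37 ± 0.309 SE, adjusted p = 0.0147), with all 6 arrays at 213 or less, and without intraabdominal adipocyte array 2 this call was lost (adjusted p = 0.0575). The SVF difference between the depots was -0.35 ± 0.309 SE (adjusted p = 0.548).

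The Mcm proteins form the ring that unwinds DNA at the fork. Mcm4 read 297, 213 and 239.5 in subcutaneous and 202, 265 and 134 in intraabdominal adipocytes, and 1139.5, 1347 and 1065 in subcutaneous and 816, 1176 and 1045 in intraabdominal SVF. It was 4.45-fold lower in adipocytes of intraabdominal fat (log2 difference -2.15 ± 0.262 SE, adjusted p = 6.5e-06) and 4.23-fold lower in those of subcutaneous fat (adjusted p = 9.45e-06), with no overlap in either depot. The other tested subunits of the ring gave smaller differences. Mcm5 read 751, 429 and 141 in intraabdominal adipocytes against 882, 1149 and 977 in intraabdominal SVF (2.55-fold lower, log2 difference -1.35 ± 0.406 SE, adjusted p = 0.012). Through its other probe set Mcm5 was not called between these groups (log2 difference -0.43, adjusted p = 0.587), and the arrays overlapped. Mcm2 read 558, 675 and 619.9 against 1187, 906 and 921 in the same groups (1.58-fold lower, log2 difference -0.66 ± 0.256 SE, adjusted p = 0.0431). In subcutaneous fat their log2 differences were -0.12 and -0.20 and neither was called. Mcm3 (log2 difference -0.39 in intraabdominal and -0.15 in subcutaneous fat) and Mcm7 (-0.0035 and -0.69) were not called through the probe sets that represent them. The other Mcm3 probe set was called lower in intraabdominal adipocytes, without overlap (154 ± 109.9 against 511 ± 94.3 in SVF, mean ± SD, n = 3; log2 difference -1.63, adjusted p = 0.0175), and not in subcutaneous fat (-0.67). The Mcm2 call was lost without any 1 of 9 arrays, all except those of subcutaneous adipocytes.

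Lig1, the ligase that joins replicated fragments, read 326, 107 and 139.5 in intraabdominal adipocytes and 556, 512 and 517 in intraabdominal SVF, 2.67-fold lower in adipocytes without overlap (log2 difference -1.42 ± 0.403 SE, adjusted p = 0.00866). In subcutaneous fat the log2 difference of Lig1 was -0.91 (adjusted p = 0.0728). The other Lig1 probe set, too dim for the filter, had means of 113 in intraabdominal adipocytes and 100 in intraabdominal SVF. In subcutaneous fat it read higher in adipocytes without overlap (means 321 against 106, log2 difference 1.35, not tested). With the probe sets of a gene averaged the intraabdominal call of Lig1 was lost. Pcna, the sliding clamp of the polymerase, read 4643 ± 644 and 4271 ± 776 in subcutaneous and intraabdominal adipocytes and 3891 ± 357 and 3795 ± 525 in the SVF of the same depots (mean ± SD, n = 3, as in what follows). Its log2 differences in the 4 comparisons of groups ran from 0.04 to 0.25 and none was called. Cdc6, which loads the helicase, Cdc45, part of the moving helicase, and Pola1, of the priming polymerase, were called in none of these comparisons. Their group means ran from 271 to 524 for Cdc6, 531 to 742 for Cdc45 and 327 to 501 for Pola1. Cdc6 read 524 ± 137 in subcutaneous and 294 ± 39.4 in intraabdominal adipocytes against 365 ± 27.9 and 271 ± 64.2 in SVF, with overlap between the fractions in intraabdominal fat. The primase subunit Prim1 (group means 59.8 to 197) and Mcm6 (49.7 to 197) were too dim for the filter. With no filter on signal Mcm6 was called higher in subcutaneous adipocytes than in subcutaneous SVF (log2 difference 1.29, adjusted p = 0.0396), and Prim1 was called in no comparison (lowest adjusted p = 0.0946, between the intraabdominal fractions).

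**Figure D2:**
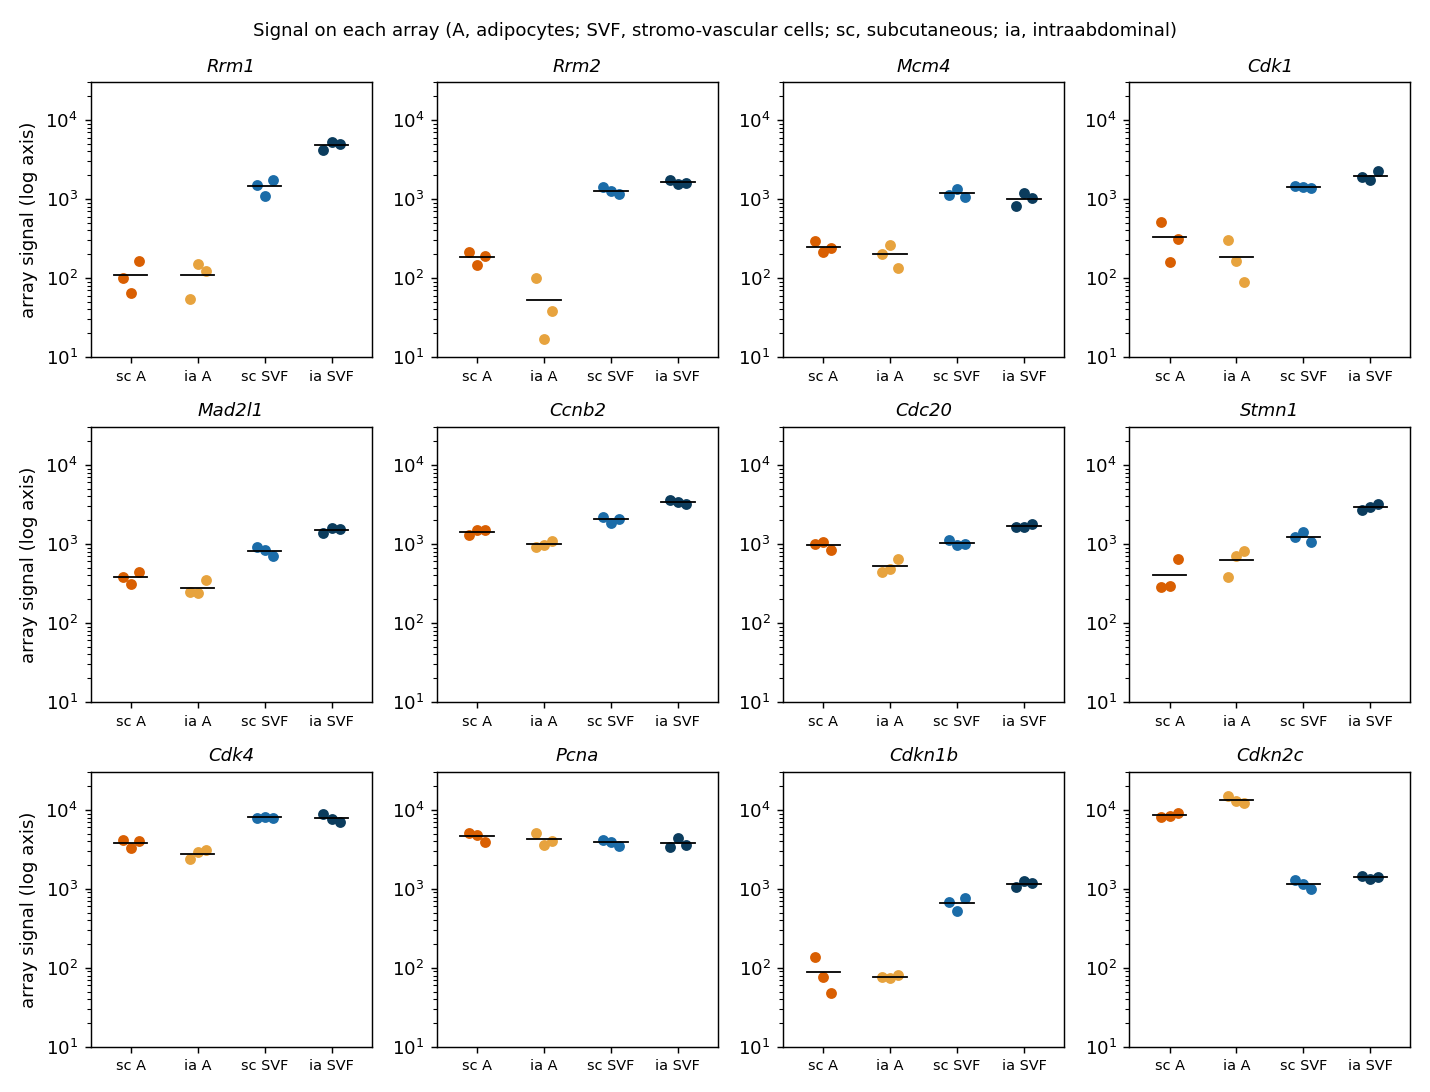
Signal of 12 members on each of the 12 arrays (dots; bars are group means of 3 arrays; log axis), by group from subcutaneous adipocytes to intraabdominal SVF. Rrm1, Rrm2, Mcm4, Cdk1 and Cdkn1b were higher in SVF than in adipocytes of both depots, Ccnb2 and Cdc20 were lowest in intraabdominal adipocytes and highest in intraabdominal SVF, group means of Pcna lay between 3795 and 4643, and Cdkn2c was higher in adipocytes.

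The genes of G2 and mitosis were often higher in SVF, and several were highest in intraabdominal SVF. Of the 10 tested 8 were called lower in intraabdominal adipocytes than in intraabdominal SVF, 4 in the same comparison in subcutaneous fat, and 4 were called lower in subcutaneous than in intraabdominal SVF. Cdk1, the kinase that drives mitosis, read 513, 159 and 311 in subcutaneous and 304, 166 and 88.1 in intraabdominal adipocytes, 1461, 1407 and 1393 in subcutaneous SVF and 1886, 1723 and 2278 in intraabdominal SVF. The adipocyte arrays stood apart from the SVF arrays in both depots. Cdk1 was 9.53-fold lower in adipocytes of intraabdominal fat (log2 difference -3.25 ± 0.368 SE, adjusted p = 3.11e-06) and 4.31-fold lower in those of subcutaneous fat (log2 difference -2.11 ± 0.368 SE, adjusted p = 0.000214). Every intraabdominal SVF array also lay above every subcutaneous one, but that log2 difference of -0.45 ± 0.368 SE was not called (adjusted p = 0.513).

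Ccnb2, a partner of Cdk1, read 1293, 1497 and 1499 in subcutaneous adipocytes, 925, 980.1 and 1089.6 in intraabdominal adipocytes, 2223, 1843 and 2076 in subcutaneous SVF and 3552, 3395 and 3229.8 in intraabdominal SVF. None of the 4 groups overlapped another. Adipocytes were 3.31-fold lower than SVF in intraabdominal fat (log2 difference -1.73 ± 0.142 SE, adjusted p = 1.05e-07) and 1.42-fold lower in subcutaneous fat (adjusted p = 0.00778). The depot difference ran in opposite directions: subcutaneous SVF was 1.65-fold lower than intraabdominal SVF (log2 difference -0.72 ± 0.142 SE, adjusted p = 0.00304), and subcutaneous adipocytes were 1.42-fold higher than intraabdominal ones (log2 difference 0.50 ± 0.142 SE, adjusted p = 0.0435). The adipocyte call was lost in 18 of 25 alternative settings, with log2 differences of 0.28 to 0.57 over all 25, and leaving out any 1 array ended it except subcutaneous adipocyte array 1 or intraabdominal adipocyte array 3.

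Cdc20, the activator of the anaphase-promoting complex, read 1006, 1071 and 847 in subcutaneous adipocytes, 446, 485 and 641 in intraabdominal adipocytes, 1109, 978 and 985 in subcutaneous SVF and 1632, 1653 and 1780.5 in intraabdominal SVF. The subcutaneous fractions overlapped while the intraabdominal ones were far apart. Adipocytes were 3.10-fold lower than SVF in intraabdominal fat (log2 difference -1.63 ± 0.183 SE, adjusted p = 2.81e-06), and in subcutaneous fat the difference was -0.07 ± 0.183 SE. Subcutaneous cells were 1.63-fold lower in SVF (log2 difference -0.70 ± 0.183 SE, adjusted p = 0.0195) and 1.81-fold higher in adipocytes (log2 difference 0.86 ± 0.183 SE, adjusted p = 0.0107).

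Mad2l1, the checkpoint protein that restrains Cdc20, read 383, 315 and 442 in subcutaneous and 244, 239.7 and 352 in intraabdominal adipocytes, and 914, 846 and 699 in subcutaneous and 1374, 1607 and 1558 in intraabdominal SVF. It was 4.92-fold lower in adipocytes than in SVF of intraabdominal fat (log2 difference -2.30 ± 0.225 SE, adjusted p = 6.68e-07), 2.05-fold lower in subcutaneous fat (adjusted p = 0.00128) and 1.81-fold lower in subcutaneous than in intraabdominal SVF (log2 difference -0.86 ± 0.225 SE, adjusted p = 0.0199). Stmn1, stathmin, which takes microtubules apart, read 284, 297 and 647 in subcutaneous and 378, 696 and 803 in intraabdominal adipocytes, and 1211, 1405 and 1070.2 in subcutaneous and 2680.4, 2968 and 3239.5 in intraabdominal SVF. The arrays of intraabdominal SVF stood above those of the other groups, and the adipocytes of the depots overlapped. Stmn1 was 4.69-fold lower in adipocytes of intraabdominal fat (log2 difference -2.23 ± 0.301 SE, adjusted p = 1.87e-05), 2.99-fold lower in those of subcutaneous fat (adjusted p = 0.000454) and 2.37-fold lower in subcutaneous than in intraabdominal SVF (log2 difference -1.25 ± 0.301 SE, adjusted p = 0.0123). The other Stmn1 probe set, too dim for the filter, had means of 288 in adipocytes and 92.3 in SVF of subcutaneous fat (log2 difference 1.08, not tested, with overlap). In intraabdominal fat its means were 67.5 and 69.5. With the probe sets of a gene averaged, the call between fractions was lost in subcutaneous fat and kept in intraabdominal fat.

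The kinase Aurka, which builds the spindle poles, and Birc5, survivin, of the chromosomal passenger complex, were high in intraabdominal SVF. Aurka read 626, 561 and 613 there against 267, 194 and 303 in subcutaneous SVF, 131, 82.7 and 156 in intraabdominal and 153, 478 and 190.2 in subcutaneous adipocytes. It was 3.99-fold lower in adipocytes than in SVF of intraabdominal fat (log2 difference -2.00 ± 0.380 SE, adjusted p = 0.000446), against a difference of -0.03 ± 0.380 SE in subcutaneous fat. Birc5 read 149, 193 and 49.6 in intraabdominal adipocytes and 739, 622 and 783 in intraabdominal SVF (4.75-fold lower, log2 difference -2.25 ± 0.437 SE, adjusted p = 0.000534), with 541, 182 and 153 and 503, 351 and 343 in the subcutaneous fractions, which overlapped. Ccna2, cyclin A2, which acts in S phase and G2, read 1015, 767 and 916 in intraabdominal adipocytes and 1792, 1494 and 2071 in intraabdominal SVF (1.94-fold lower, log2 difference -0.95 ± 0.221 SE, adjusted p = 0.0021).

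The remaining mitosis genes were dim or depended on the probe set. Top2a, which untangles DNA, had group means of 90.0, 96.0, 183 and 395 from subcutaneous adipocytes to intraabdominal SVF. The checkpoint kinase Bub1 (33.4, 66.4, 121 and 315) and the spindle motor Kif11 (133, 47.8, 197 and 439) had the same order of SVF over adipocytes. With no filter on signal these 3 were called lower in intraabdominal adipocytes than in intraabdominal SVF (adjusted p = 0.0114, 0.00653 and 0.00875). Mki67, the proliferation antigen Ki-67, was represented by a probe set with group means of 472, 327, 412 and 439.9 in the same order, and was called in no comparison. Its other probe set, too dim for the filter, read 112, 91.7, 184 and 622, and its log2 difference between intraabdominal adipocytes and SVF was -2.48 (adjusted p = 0.00372 with no filter). The 3 probe sets of the mitotic kinase Plk1 disagreed, with log2 differences of 0.92, -0.94 and -0.03 in that comparison and 0.91, 0.15 and 1.84 in subcutaneous fat, where the last was called higher in adipocytes without overlap (adjusted p = 0.00368).

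In G1 the kinase Cdk4 was lower in adipocytes of both depots, and the D-type cyclins were not called between fractions in the main setting. Cdk4 read 4164, 3279 and 4052 in subcutaneous adipocytes, 2371, 2907 and 3117 in intraabdominal adipocytes, 7963, 8239.7 and 7894 in subcutaneous SVF and 8778, 7716 and 7018 in intraabdominal SVF. SVF arrays lay above all adipocyte arrays, and the SVF of the depots overlapped. Adipocytes were 2.78-fold lower in intraabdominal fat (log2 difference -1.48 ± 0.139 SE, adjusted p = 4.61e-07) and 2.10-fold lower in subcutaneous fat (log2 difference -1.07 ± 0.139 SE, adjusted p = 1.33e-05), and its other probe set was called lower in adipocytes of both depots as well. Ccnd2, a D-type cyclin, was the 1 G1 gene called between depots: it read 5529, 4277 and 5363 in subcutaneous and 6448, 8744 and 8945 in intraabdominal SVF (1.58-fold lower, log2 difference -0.66 ± 0.193 SE, adjusted p = 0.0354). Ccnd2 was called in neither comparison of fractions, with 5814 ± 1448 in subcutaneous and 7095 ± 929 in intraabdominal adipocytes.

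The other D-type cyclins and Cdk2 were not called in any comparison of groups in the main setting. Among 25 alternative settings Ccnd1 was called between fractions in 3 in intraabdominal and 1 in subcutaneous fat, and between adipocytes of the depots in 1. Ccnd3 was called between the subcutaneous fractions in 5 and between the SVF of the depots in 4, and Cdk2 between the subcutaneous fractions in 2. Ccnd1 read 834 ± 316 and 501 ± 109 in subcutaneous and intraabdominal adipocytes and 1008 ± 203 and 817 ± 185 in SVF. Ccnd3 ran from 2277 ± 166 in subcutaneous SVF to 3492 ± 1029.6 in intraabdominal adipocytes, and Cdk2 from 726 ± 283 in subcutaneous adipocytes to 964 ± 84.0 in subcutaneous SVF. Ccne1, cyclin E1, the partner of Cdk2, was called lower in subcutaneous adipocytes than in SVF (1.86-fold, adjusted p = 0.0436), but its arrays overlapped (397, 772 and 1534 against 1392, 1416 and 1674) and the call was lost in 14 of 25 alternative settings, 8 of them leaving out 1 array. E2f1, one of the E2F factors of S phase genes, read 361, 397 and 421 in intraabdominal adipocytes and 762, 600.3 and 575 in intraabdominal SVF (1.57-fold lower, log2 difference -0.65 ± 0.235 SE, adjusted p = 0.0306). The call was lost in 10 of 25 settings, among them without array 1 or 2 of either group, and the other E2f1 probe set was not called (log2 difference -1.03, adjusted p = 0.216).

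Of the inhibitors, Cdkn2c was higher and Cdkn1b lower in adipocytes than in SVF. Cdkn2c, p18, which binds Cdk4 and Cdk6, read 8036, 8388 and 9052 in subcutaneous adipocytes, 15099, 12976 and 12202 in intraabdominal adipocytes, 1278, 1144 and 993 in subcutaneous SVF and 1468, 1349 and 1418 in intraabdominal SVF. It was the 1 member called higher in adipocytes through the probe set that represents it, by 9.24-fold in intraabdominal (log2 difference 3.21 ± 0.131 SE, adjusted p = 5.07e-11) and 7.27-fold in subcutaneous fat (log2 difference 2.86 ± 0.131 SE, adjusted p = 2.11e-10). These calls held in all 25 alternative settings. Intraabdominal adipocytes also carried 1.57-fold more Cdkn2c than subcutaneous adipocytes (log2 difference -0.65 ± 0.131 SE, adjusted p = 0.00678), and the depot difference in SVF was -0.31 ± 0.131 SE (adjusted p = 0.156).

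Cdkn1b, p27, ran the other way, at 137, 77.3 and 48.4 in subcutaneous and 76.3, 74.6 and 81.3 in intraabdominal adipocytes, and 678, 518 and 773 in subcutaneous and 1059, 1259 and 1184 in intraabdominal SVF. Adipocytes lay below SVF without overlap, 10.2-fold in intraabdominal (log2 difference -3.36 ± 0.312 SE, adjusted p = 3.94e-07) and 5.61-fold in subcutaneous fat (log2 difference -2.49 ± 0.312 SE, adjusted p = 9.12e-06). All adipocyte signals of Cdkn1b lay under the level of the filter, so the folds depend on the pseudocount, and over the alternatives the log2 difference ran from -4.07 to -2.09 in intraabdominal and -3.58 to -1.22 in subcutaneous fat. A second Cdkn1b probe set was called in neither (log2 differences -0.82 and 0.05). Cdkn1a, p21, was not called through its main probe set, with 5518 ± 1445, 6316 ± 1050.2, 5261 ± 246 and 8104 ± 1569.6 from subcutaneous adipocytes to intraabdominal SVF. The other Cdkn1a probe set read lower in adipocytes than in SVF in intraabdominal (log2 difference -1.54, adjusted p = 0.000112) and subcutaneous fat (-1.19, adjusted p = 0.00101). Between the SVF of the depots the log2 differences of the 3 inhibitors ran from -0.81 to -0.31, and none was called by limma (adjusted p = 0.0523 for Cdkn1a and 0.116 for Cdkn1b). Among 25 alternative settings Cdkn1a was called there in 10 and Cdkn1b in 4.

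The distance between groups was wider for the genes of mitosis than for those of S phase. For each array the median was taken over a role's genes, each centred on its own mean over the 12 arrays, as a description with no test. The mitosis median was -0.28, -0.66 and -0.55 on the arrays of subcutaneous adipocytes, -0.91, -0.68 and -0.68 in intraabdominal adipocytes, 0.28, 0.30 and 0.14 in subcutaneous SVF and 1.13, 0.92 and 1.10 in intraabdominal SVF (log2). The S phase median was 0.27, -0.19 and -0.46 in subcutaneous and -0.41, -0.27 and -0.15 in intraabdominal adipocytes, and 0.15, 0.21 and 0.04 in subcutaneous and 0.50, 0.35 and 0.34 in intraabdominal SVF. Both medians were highest in intraabdominal SVF, and there the mitosis median was the higher of the pair on every array. The S phase median minus the mitosis median had a mean of 0.37 ± 0.25 in subcutaneous and 0.48 ± 0.06 in intraabdominal adipocytes, -0.11 ± 0.02 in subcutaneous SVF and -0.66 ± 0.10 in intraabdominal SVF (SD, n = 3 arrays each). The zero of these values is set by the centring, so a sign does not say which role had the higher level of RNA. The median of the 3 inhibitors was -0.19 ± 0.37, 0.03 ± 0.23, -0.22 ± 0.07 and 0.38 ± 0.30, from subcutaneous adipocytes to intraabdominal SVF, with overlap between adipocyte and SVF arrays. On every array this median was the value of Cdkn1a alone, because Cdkn1b and Cdkn2c lay on opposite sides of it. Cdkn1b and Cdkn2c each separated the fractions without overlap, in opposite directions. The medians of all probe sets stayed between -0.14 and 0.15 on every array.

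**Figure D3:**
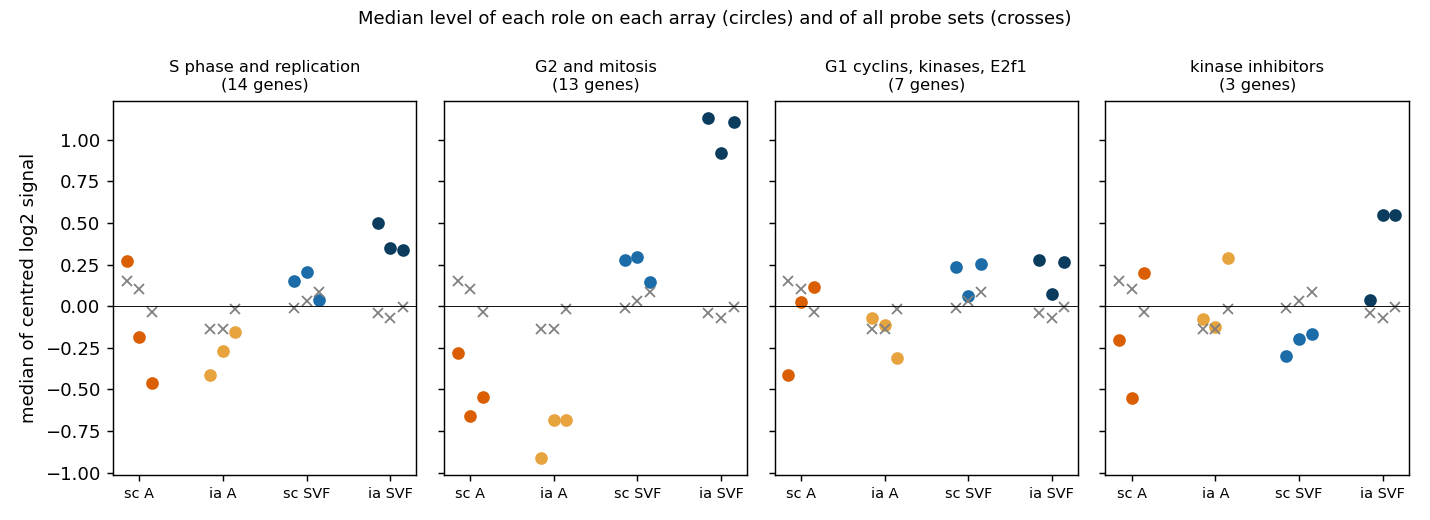
Median over the genes of each role (circles) on each of the 12 arrays, every gene centred on its own mean log2 signal, with the median of all 12422 probe sets on the same array (grey crosses); A is adipocytes, sc subcutaneous and ia intraabdominal. The mitosis genes reach 0.92 to 1.13 in intraabdominal SVF and the S phase genes 0.34 to 0.50, while the G1 genes stay within 0.28 of 0 on all SVF arrays. For the kinase inhibitors the median is the value of Cdkn1a on every array.

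Between the SVF of the depots, 4 of 10 tested mitosis genes, 1 of 12 tested S phase genes (Rrm1) and 1 of 7 G1 genes (Ccnd2) were called lower in subcutaneous cells, and no member was called higher by limma (0 at an unadjusted p under 0.05, against 12 lower). Over all genes of a role on the array the median log2 difference was -0.79 for mitosis, -0.18 for S phase and 0.04 for G1, and all 13 mitosis genes had a value below 0. The number of calls changed with single arrays: without subcutaneous SVF array 2 or 3, or intraabdominal SVF array 2 or 3, 3, 2, 3 and 2 of the 6 members were called. Rrm1 and Ccnb2 stayed called without any 1 array, Cdc20 and Mad2l1 were lost without each of these 4 arrays, Ccnd2 without these and subcutaneous SVF array 1, and Stmn1 without array 3 of either SVF group (adjusted p up to 0.076 for Cdc20 and 0.0962 for Mad2l1). Over all 25 alternatives the log2 difference ran from -0.76 to -0.66 for Cdc20, -0.94 to -0.75 for Mad2l1 and -0.81 to -0.54 for Ccnd2. With the probe sets of a gene averaged, Stmn1 was lost (log2 difference -0.44) and Rrm1 fell below the filter, as the second probe set of each is dim. With the 6 SVF arrays alone 12 members were called, and with array quality weights 11; Aurka, not called in the main setting, was called in 7 of the 25.

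Markers of other cells also differed between these SVF groups, and their part in the result was not tested. Signals of smooth muscle and pericytes stood out: 7 of 8 markers were called lower in the subcutaneous depot, where they summed to 40686 to 41283, against 161976 to 190916 in intraabdominal SVF. Of 5 tested mesothelial markers all were lower (sums of 7 on the array 1087 to 1413 against 6879 to 7064), and of 10 tested macrophage markers 6 were lower and 1 higher (sums of 11 25983 to 27586 against 41678 to 47196). Of 9 endothelial markers 4 were higher in subcutaneous SVF (sums 10036 to 11637 against 10129 to 17484), while the 10 markers of preadipocytes and fibroblasts had 3 called higher and 1 lower (sums 343783 to 375672 against 240220 to 269568). Among the endothelial markers Eng gave the largest part of the sums. It had means of 7397 in subcutaneous and 11942 in intraabdominal SVF, opposite to the 4 calls, and was not called. None of 4 tested lymphocyte markers was called by limma in this comparison, and the sums of the 9 on the array overlapped (1376 to 1754 against 1404 to 1738).

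Ccnb2 and Cdc20, called lower in subcutaneous than in intraabdominal SVF, were called the other way in adipocytes. Of the other members called in SVF, Stmn1 (log2 difference -0.60) and Ccnd2 (-0.31) kept their direction. Mad2l1 stood at 0.40 and Rrm1 at 0.01, and none of these was called by limma in adipocytes. Rrm2, Ccnb2 and Cdc20 were called higher in subcutaneous adipocytes and Cdkn2c lower, with no G1 gene called by limma (2 higher at an unadjusted p under 0.05). Rrm2 was dim in adipocytes and was tested only because its SVF signals passed the filter. The difference of Cdk4, 0.45 ± 0.139 SE, did not pass (adjusted p = 0.0627), though its arrays did not overlap. Without intraabdominal adipocyte array 2, 2 of the 4 calls were left, with quantile normalization or array quality weights 2 members were called, and with the 6 adipocyte arrays alone 1. The actin ratio was higher on all arrays of subcutaneous adipocytes than on those of intraabdominal ones, and with it as a covariate none of the 4 was called (3 of 32 members at an unadjusted p under 0.05). Over the alternative settings the lowest count of all probe sets called was 97, against 707 in the main setting. Centring each array on its median moved the median difference of all tested probe sets from 0.07 to -0.15 and the share of calls that were higher from 48.8% to 18.0%, and with it Rrm2, Cdc20 and Cdkn2c stayed called and Ccnb2 did not. Lymphocyte markers on the array summed to 2565 to 5155 in subcutaneous and 1478 to 2389 in intraabdominal adipocytes with none of 4 tested called, and their part, like that of RNA quality, was not tested further. Macrophage sums overlapped (20221 to 28637 against 14961 to 25578), with 1 of 10 tested markers higher and none lower. Of 10 preadipocyte and fibroblast markers 2 were called higher in subcutaneous adipocytes and 0 lower, with sums of 57168 to 83406 against 48366 to 55145. Of 9 endothelial and 8 smooth muscle and pericyte markers 1 each was called lower and 0 higher. The part of these cells was not tested.

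The difference between these depot differences was tested directly. Of 32 members 6 were called (Rrm1, Rrm2, Ccnb2, Cdc20, Aurka and Mad2l1), all with a depot difference that was more positive in adipocytes than in SVF, which is 18.8% against 3.9% of all probe sets called in that direction, 4.53% in the other and 8.43% in either. For Cdc20 the depot difference in adipocytes exceeded that in SVF by 1.56 ± 0.258 SE (adjusted p = 0.00146), and for Ccnb2 by 1.22 ± 0.200 SE (adjusted p = 0.00135). These 2 genes were called in both fractions, in opposite directions, and their call on the difference held in all 24 alternatives. Aurka (1.96 ± 0.537, adjusted p = 0.0355), Rrm1 (1.74 ± 0.442, adjusted p = 0.0247), Rrm2 (1.72 ± 0.437, adjusted p = 0.0243) and Mad2l1 (1.26 ± 0.318, adjusted p = 0.023) followed, in log2 ± SE. Both Rrm1 and Rrm2 were dim in adipocytes and passed the filter on low signal through SVF. Aurka was dim in intraabdominal adipocytes (mean 123). Its call was lost in 13 of 23 alternatives and that of Mad2l1 in 9 of 24. Leaving out intraabdominal adipocyte array 1, or subcutaneous SVF array 1 or 3, left 3 of the 6, and leaving out subcutaneous SVF array 2 or intraabdominal SVF array 2 or 3 left Ccnb2 and Cdc20. With quantile normalization 2 members were called and with the actin ratio as a covariate 3. Stmn1, lower in subcutaneous cells of both fractions by value, was not called here (adjusted p = 0.425).

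**Figure D4:**
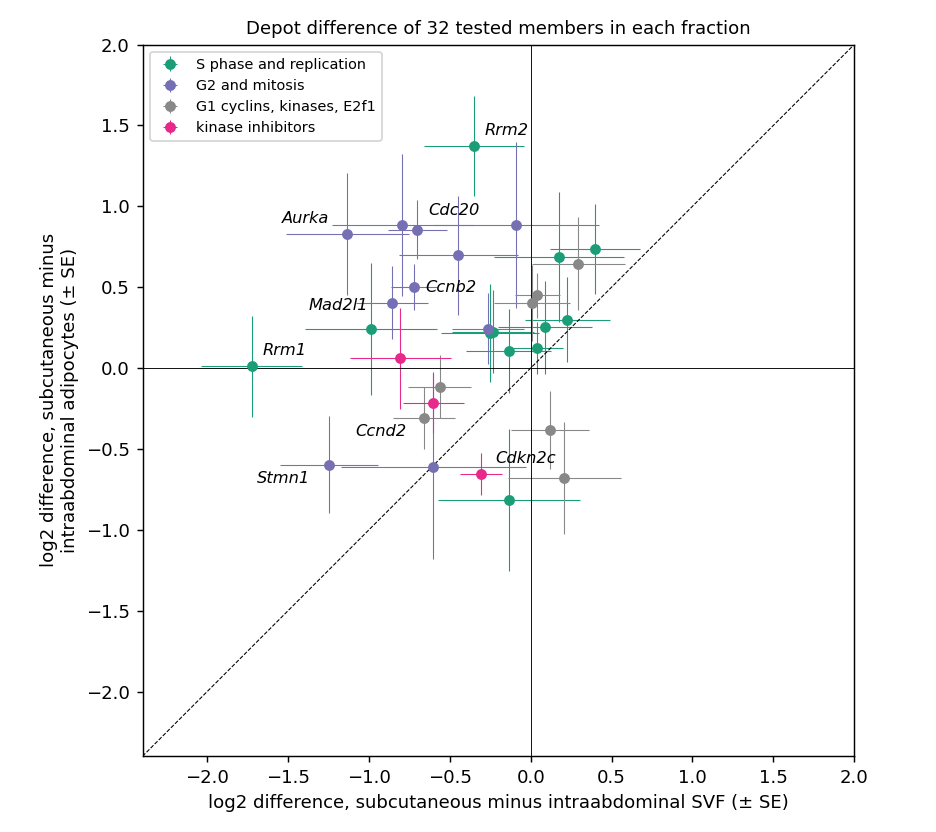
Log2 difference between subcutaneous and intraabdominal cells in adipocytes (vertical axis) against that in SVF (horizontal axis) for the 32 tested members, with bars of ± 1 SE and the dashed line where both are equal; colours give the role. Ccnb2, Cdc20, Aurka and Mad2l1 lie above 0 in adipocytes and below 0 in SVF, Rrm2 has the largest adipocyte difference of those called, Rrm1 lies at 0.01 in adipocytes and -1.72 in SVF, and Cdkn2c and Stmn1 are below 0 on both axes.

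Other cell cycle genes, 130 from a wider list of which 108 were on the array and 88 tested, were described in the same way. Between fractions 34 were lower and 9 higher in intraabdominal adipocytes, and 27 lower and 8 higher in subcutaneous adipocytes (38.6% and 30.7% of those tested lower, against 29.0% and 29.4% of all probe sets). Among 36 tested genes of mitosis 21 were lower in intraabdominal and 10 in subcutaneous adipocytes, and among 28 of replication 6 and 10. The largest called differences without overlap were those of the mitotic kinesin Kif20a (8.75-fold lower in intraabdominal adipocytes, adjusted p = 2.23e-06), the contractile ring protein Anln (7.73-fold), Ect2, which sets the site of the ring (6.35-fold), and the condensin subunit Smc2 (6.26-fold). In subcutaneous fat the list was led by Anln (6.26-fold), Kif20a (5.82-fold), the spindle midzone protein Prc1 (5.71-fold) and the Cdk1 partner Cks2 (3.95-fold). Those higher in adipocytes of both depots were led by the stress gene Gadd45b (5.38-fold in intraabdominal and 7.86-fold in subcutaneous fat), the antiproliferative Btg2 (4.14-fold and 3.26-fold), the centromere protein Cenpb (3.71-fold and 4.63-fold) and topoisomerase Top1 (3.84-fold and 2.44-fold).

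Between the SVF of the depots 9 genes of the wider list were lower and 3 higher in subcutaneous cells (10.2% and 3.41% of those tested, against 6.45% and 6.49% of all probe sets). Of the 9, 5 were of mitosis, among them Anln at 641 ± 88.2 against 3239 ± 485 (4.81-fold, adjusted p = 3.63e-05), Ect2 (3.53-fold) and Racgap1, its partner (2.85-fold). Another was the kinase inhibitor Cdkn2b, p15, at 483 ± 34.9 against 2197 ± 163 (4.27-fold, adjusted p = 6.21e-06). None of 28 tested replication genes of the wider list was called by limma between the SVF of the depots (2 higher and 1 lower at an unadjusted p under 0.05). The 3 higher genes were Gadd45a, a DNA damage response gene (16799 ± 1883 against 5187 ± 675, 3.23-fold, adjusted p = 7.52e-06), the antiproliferative Btg1 (1.93-fold) and the growth regulator Myc (1.82-fold).

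In adipocytes 3 genes of the wider list were called between depots, 3.41% of the 88 tested against 8.13% of all probe sets. Anln was 3.90-fold lower in subcutaneous adipocytes (72.0 ± 38.0 against 383 ± 51.5, adjusted p = 0.000472), the same direction as in SVF and opposite to Ccnb2 and Cdc20. Foxm1, a transcription factor of mitotic genes (1.84-fold, adjusted p = 0.0233), and the stress gene Gadd45g (2.41-fold, adjusted p = 0.0173) were higher. The test of the difference between the fractions called 5 genes, 5.68% of those tested against 8.43% of all probe sets. These were Cdkn2b (log2 1.84) and Ccng1, cyclin G1 (1.09), upward and Myc (-1.42), Gadd45a (-1.34) and Btg1 (-1.21) downward, with no further gene of mitosis or replication called by limma (8 of mitosis upward and 1 of replication each way at an unadjusted p under 0.05).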

How the data were processed

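The deposited values are an intensity per probe set and array on a linear scale, which the authors computed with MAS5 (submitters' processing notes); no version and no detection call is given. The arrays' 2% trimmed means agreed within a ratio of 1.00017, so the values were used as deposited. No 2 arrays were identical. Of 12488 probe sets 66 controls were left out; 10833 of 12422 had 1 symbol in the platform annotation, which can be old. The members, roles, marker lists and wider list were chosen with earlier results of these data known. For the test 40.2, the 10th percentile of all values, was added to each signal before taking log2. The fit left out the lowest 30% of mean log2 signal, and estimated 4 group means to all 12 arrays with limma 3.58.1 in R 4.3.3 (eBayes with an intensity trend), with Benjamini-Hochberg adjustment over 8695 probe sets in each of 5 contrasts. The method was tested on simulated data. The number of arrays limits the precision: log2 differences had a median SE of 0.241, that between depot differences 0.341. Every member on the array is named; members called without overlap of the arrays have their full values, and from the wider list up to 4 genes per comparison and direction with the largest differences among such calls. Replicate numbers did not pair the arrays. Alternatives covered the pseudocount, filter, scaling, variance model, weights, arrays fitted, replicate block, actin ratio, choice of probe set and each array left out. Promoter windows are from RefSeq.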

Additional observations from a re-analysis of the deposited data

Results flagged for a closer look

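The depot difference differed between adipocytes and SVF, by limma's test of that difference, for 6 members, and in all 6 it was more positive in adipocytes. The log2 values are subcutaneous minus intraabdominal in adipocytes minus the same in SVF. They were 1.56 for Cdc20 (0.86 in adipocytes and -0.70 in SVF) and 1.22 for Ccnb2 (0.50 and -0.72), the 2 genes with calls of opposite sign in the fractions. The value was 1.26 for Mad2l1 (0.40 and -0.86) and 1.96 for Aurka (0.83 and -1.13). The call of Mad2l1 was lost in 9 of 24 alternatives and that of Aurka in 13 of 23. Aurka read 153, 478 and 190.2 in subcutaneous and 131, 82.7 and 156 in intraabdominal adipocytes, the latter under the level of the filter. Its call was lost without subcutaneous adipocyte array 2, the array at 478. For the subunits of ribonucleotide reductase the value was 1.74 for Rrm1 (0.01 in adipocytes and -1.72 in SVF) and 1.72 for Rrm2 (1.37 and -0.35). Each of these 2 calls was lost in 7 of 23 alternatives. Rrm1 and Rrm2 were dim in adipocytes (54.2 to 164 and 17.1 to 213) and were tested only because their SVF signals passed the filter. The pseudocount bears on their adipocyte values, so these do not show how the 2 subunits compare in adipocytes.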

How the results depend on the processing

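The number of members called between the SVF of the depots was 6 and became 11 with array quality weights and 12 with the 6 SVF arrays alone (2 to 9 with 1 array left out). Between adipocytes of the depots it was 4 and became 2 with quantile normalization, 2 with array quality weights, 1 with the 6 adipocyte arrays alone and 0 with the actin ratio as covariate (2 to 6 with 1 array left out; 3 of 32 at an unadjusted p under 0.05 with the covariate). For the difference between depot differences it was 6 and became 2 with quantile normalization and 3 with the actin ratio (2 to 7 with 1 array left out). Between fractions it was 11 in subcutaneous fat, 3 with the actin ratio (10 to 14 with 1 array left out), and 18 in intraabdominal fat (16 to 20, and 12 to 19 under the others). With the actin ratio Ccne1 reversed in subcutaneous fat (log2 1.15) and Mcm5 in intraabdominal fat (0.16). No other call of a member changed sign. The replicate numbers shared by the titles did not pair the arrays (correlations of same-numbered arrays -0.09 to 0.11, with 1 of 18 over 0.1); with the replicate block 3, 7, 11, 18 and 5 members were called in adipocytes and SVF of the depots, the fractions of subcutaneous and of intraabdominal fat, and the difference of depot differences. Setting aside probe sets of the _f, _i or _r kind, chosen after seeing the data, changed 1 call, that of E2f1. Over all alternatives all probe sets called ran from 97 to 958 (707 in the main setting) and 766 to 1952 (1125) between depots in adipocytes and SVF, 1058 to 4776 (4595) and 2173 to 4719 (4462) between fractions, and 403 to 850 (733) for the last contrast; the wider list gave 1 to 7 (3), 7 to 19 (12), 2 to 38 (35), 14 to 48 (43) and 4 to 8 (5). Centring each array on its median left 32.9% of calls upward in place of 46.2% for the last contrast, and the call of Mad2l1 was lost there.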
